A study of Mus musculus with 8 samples.

Results

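Resting CD4+ T cells of mice whose parents drank cadmium were compared with those of control mice across the transcriptome. The comparison was between the 4 unstimulated RNA sequencing libraries among the 8 of the study, 2 from Cd offspring and 2 from control offspring. It covered the 12605 of 27179 listed genes with a mean level of at least 0.5 RPKM over the 8 libraries (reads scaled to transcript length and to the total of the library). Of these genes, 79 encode cytosolic ribosomal proteins and 126 are copies of such genes, and the account below is mainly about the 12400 others.

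All mice were of the strain C.Cg-Foxp3tm2Tch/J, a Foxp3 reporter line, and were 8 weeks old when the spleens were taken. In the Cd group both parents had received CdCl2 at 10 ppm in their drinking water while mating, and the dams through pregnancy. The Cd was withdrawn at birth. Parents of the control group drank unspiked water. Splenic CD4+ T cells were enriched by negative selection and, for RNA sequencing, purified further by FACS sorting. The study describes the cultured cells as CD4+CD25- conventional T cells. The unstimulated libraries were made at 0 h and the stimulated ones after 16 h with beads carrying anti-CD3 and anti-CD28 antibodies. The stimulated libraries also entered the fit, so the level filter and the spread behind the p values draw on all 8 libraries. Replicates are numbered 6 and 7 in each group, and the labels name neither litter nor sex. The p values therefore measure the spread between these libraries only.

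Cadmium is a toxic metal that binds thiol groups and is held in cells by metallothioneins, small proteins whose genes are induced through the metal-sensing factor Mtf1. It is also known to unfold proteins, which releases the heat shock factor Hsf1 and switches on chaperone genes, and to cause oxidative stress, to which Nrf2 target genes respond. The mice here were sampled long after the exposure had ended. A resting T cell is small, divides little, keeps its translation low and relies on oxidative phosphorylation and on survival factors such as Bcl2.

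Between 16299663 and 20538306 reads were counted per unstimulated library, over the range of 15542732 to 25486791 for all 8. CD4 T cell genes were high in all 4 libraries, with a summed level of the 10 defining markers of 3025 and 2953 RPKM in control and 2812 and 2826 RPKM in Cd offspring, and none of the 10 was called. No marker of other cells was called. The B cell genes Ms4a1 and Ebf1 were at 0, whereas Ighm, which encodes an immunoglobulin heavy chain, lay at 248 to 275 RPKM. Myeloid markers summed to 19.25 to 22.3 RPKM and those of CD8 T cells and NK cells to 46.8 to 53.5 RPKM. Of the myeloid list Cd14, S100a8 and S100a9 were at 0, whereas Cst3 lay at 14.7 to 19.3 RPKM. Cd8a lay between 0.0823 and 0.160 RPKM, but Cd8b1 at 9.40 to 10.6 RPKM, Klrd1 at 13.6 to 15.8 RPKM and Prf1 at 15.9 to 19.4 RPKM. Cd79a of the B cell list lay at 2.87 to 3.38 RPKM. Erythroid and platelet markers summed to 1.95 and 2.74 RPKM in control and to 4.13 and 2.51 RPKM in Cd offspring. Xist, the RNA of the inactive X chromosome, stood at 49.3 to 61.3 RPKM in all 4 libraries and the Y-linked genes Eif2s3y and Kdm5d were at 0, so the markers of sex did not separate the groups. In bulk libraries such as these, fewer cells of a type and less RNA per cell cannot be told apart.

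The 2 exposure groups were compared with limma on log2(RPKM + 0.1), a scale that understates the change of low genes, in one model of the 4 groups, and a gene was called at a Benjamini-Hochberg adjusted p under 0.05. In unstimulated cells 113 of 12605 genes were called (0.896%), 17 higher in Cd offspring (0.135%) and 96 lower (0.762%). Outside the ribosomal protein genes and their copies, 57 of 12400 genes were called (0.46%), 17 higher (0.137%) and 40 lower (0.323%). The ribosomal protein genes and copies made up the rest, 28 genes and 28 copies, all lower. Of the 57, 35 were protein coding by RefSeq (8 higher and 27 lower), 6 were microRNA entries, 4 were T cell receptor segments, 6 were pseudogenes, 1 was a long non-coding RNA and 5 had no RefSeq type. Of these calls 2, Mir669k and Trdd1, passed the level filter only through the group in which they are high. For all 57 the 2 Cd libraries lay on one side of the 2 control libraries, which also held for 42.3% of all genes tested. In stimulated cells 0 of 12605 genes were called between Cd and control offspring by limma and 0 by voom on the recovered reads, and 414 (3.28%) had an unadjusted p under 0.05, against 1748 (13.9%) in unstimulated cells.

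These counts rested on few libraries. Without the control replicate 6, 9 genes were called outside the ribosomal genes, 6 higher and 3 lower, and without the control replicate 7 there were 37, 26 higher and 11 lower. Without the Cd replicate 6 there were 71 and without the Cd replicate 7 there were 50. Fitted on the 4 unstimulated libraries alone, 17 genes were called, 10 higher and 7 lower. Limma voom on the reads recovered from the table called 125, 61 higher and 64 lower, and 35 of the 57 were among them. Each of the 57 kept its sign in every alternative that gave it a value. The plot of level against change shows the called genes over the whole range of expression.

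**Figure D1:**
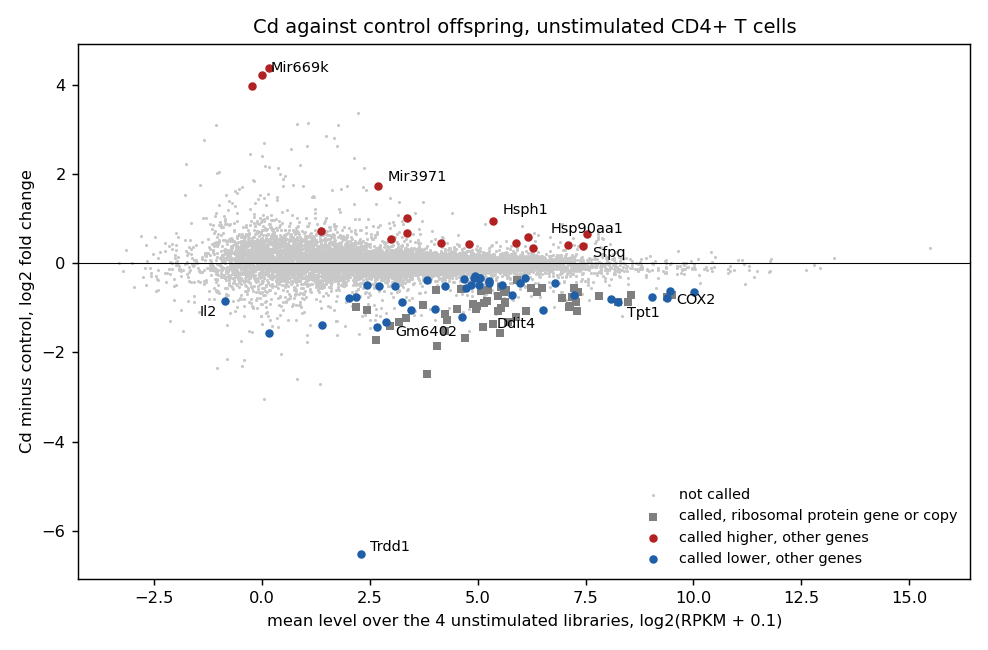
Each point is a gene tested, with its mean level over the 4 unstimulated libraries (log2 of RPKM + 0.1) on the horizontal axis and the log2 fold change of Cd against control offspring on the vertical axis. Red and blue points are the 17 genes called higher and the 40 called lower outside the ribosomal protein genes, and grey squares are the called ribosomal protein genes and copies, all lower.

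Of the called protein-coding genes Hsph1 had the largest increase (NCBI gene 15505, chr5:149616843-149636498 of GRCm38.p6). It encodes an Hsp110 protein that exchanges the nucleotide of Hsp70 and so helps it to release its clients. Its level was 27.5 and 28.2 RPKM in the control libraries and 48.3 and 59.96 RPKM in the Cd libraries. The groups did not overlap, although the Cd libraries differed more from each other than the control libraries did. The control mean was 27.8 ± 0.524 RPKM and the Cd mean 54.1 ± 8.23 RPKM (SD, n = 2 each), or 0.95 on the log2 scale (standard error 0.096, limma adjusted p = 0.00966). The log2 fold change ran from 0.79 to 1.10 with each library left out, and Hsph1 was called in 3 of these 4 fits and in 10 of the 11 other settings tried. Without the control replicate 6, and without the trend of the spread over expression, it was not called.

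Heat shock genes carry heat shock elements, inverted repeats of GAA to which Hsf1 binds. The promoter of Hsph1 is shown because no other gene called higher that had a promoter to search held such an element. The cores GAANNTTC and TTCNNGAA, each its own reverse complement, were looked for in the 250 bases before each start that RefSeq gives on GRCm38.p6. A core stood in 12 of the 35 heat shock and co-chaperone promoters (34.3%), against 12.2% of 9164 tested genes with a promoter and 14.5% of 27025 in the whole table. Of the 17 genes called higher 4 had a promoter in the table, without Hsp90aa1, which was not searched. Of these, only the promoter of Hsph1 held a core. It starts 33 bases before one of its 2 annotated starts and is in capitals below, on the minus strand at chr5:149636351-149636380. A match of letters is not evidence of binding.
Hsph1: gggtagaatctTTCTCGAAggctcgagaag

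Hsp90aa1, the inducible cytosolic Hsp90, had 116 and 120 RPKM in control and 162 and 151 RPKM in Cd offspring, a log2 fold change of 0.40 (standard error 0.059, limma adjusted p = 0.0333). Cct3, a subunit of the chaperonin TRiC that folds actin and tubulin, had 67.8 and 69.6 RPKM in control and 82.9 and 91.0 RPKM in Cd offspring, a log2 fold change of 0.34 (standard error 0.055, limma adjusted p = 0.0456). For both genes the groups did not overlap, and either call was made in 1 of the 4 fits with a library left out. Hsp90aa1 shares 47.5% of its windows of 50 bases with transcripts of other genes, while Hsph1 shares none and Cct3 0.793%.

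Of the 43 heat shock and co-chaperone genes tested, 2 rose, 0 fell and 41 were not called, with a median log2 fold change of 0.09 against 0.007 over all genes tested, and 32 were above 0. The next in order of p were co-chaperones of Hsp70 and Hsp90, none of them called by limma on RPKM. Limma voom on the reads called 10 of the 43, all higher, among them these co-chaperones. Over all genes tested voom called 211, 61 of them higher. Ahsa1, which activates the ATPase of Hsp90, had 55.4 and 51.0 RPKM in control and 63.9 and 68.1 RPKM in Cd offspring (log2 fold change 0.31, limma adjusted p = 0.0652). The log2 fold change was 0.44 for Stip1, which joins Hsp70 to Hsp90, 0.32 for St13 and 0.27 for the immunophilin Fkbp4. All had groups that did not overlap, which also held for 42.3% of all genes tested. Looked up after the values were seen, the stress-inducible Hsp70 genes Hspa1a and Hspa1b were also higher in both Cd libraries, called by voom and not by limma on RPKM. Hspa1b had 11.4 and 11.3 RPKM in control and 18.4 and 19.3 RPKM in Cd offspring, a log2 fold change of 0.73 with a standard error of 0.17 (limma adjusted p = 0.128). The constitutive Hspa8 was at 0.13 and Hsp90ab1 at 0.27 on the same scale.

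The other folding systems lay near 0 as lists. Of 14 TRiC and prefoldin genes 1 was called, Cct3, and the median was 0.02. The mitochondrial chaperonin genes Hspd1 and Hspe1 had log2 fold changes of 0.16 and -0.03. Of 26 genes of the endoplasmic reticulum and integrated stress responses, 0 rose and 1 fell, Ddit4, with a median of 0.01. Hsp90b1, the endoplasmic reticulum Hsp90, had 110 and 121 RPKM in control and 129 and 156 RPKM in Cd offspring and was not called (log2 fold change 0.30, limma adjusted p = 0.251).

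Metallothionein mRNAs were at the limit of detection. Mt1 stood at 0.103 and 0.113 RPKM in control and at 0 and 0.0898 RPKM in Cd offspring, Mt2 at 0 in both control libraries and at 0 and 0.0876 RPKM in the Cd libraries, and Mt3 was at 0. These levels were too low for the test. Of 22 tested genes of the metal response and of zinc and iron transport, 0 were called by limma and 0 by voom. An unadjusted p under 0.05 was found for 4 of them, against 13.9% of all genes tested. The median was -0.03, or -0.09 without the Cd replicate 6. The lowest p went to the zinc transporter Slc39a11, with 8.92 and 8.26 RPKM in control and 6.89 and 7.23 RPKM in Cd offspring (log2 fold change -0.28, limma adjusted p = 0.169). The ferritin light chain Ftl1 was at -0.47 and the heavy chain Fth1 at -0.16, and Ftl1 shares 58.4% of its windows with other transcripts.

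The oxidative stress list was also without a call, 0 of 31 Nrf2 and antioxidant genes by limma and by voom. An unadjusted p under 0.05 was found for 8 of them, against 13.9% of all genes tested. Of the 31, 25 were below 0, and the median was -0.07, or -0.15 without the Cd replicate 6. Hmox1, the haem oxygenase that cadmium is known to induce, was low at 1.23 and 1.09 RPKM in control and at 0.752 and 0.587 RPKM in Cd offspring, a log2 fold change of -0.72 with a standard error of 0.23 (limma adjusted p = 0.247). Gstp1, Gpx4 and Sod1 were at -0.27, -0.36 and -0.21, all without a call.

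Of the other protein-coding genes that rose, Sfpq, a splicing factor and core protein of paraspeckles, was the most abundant. It had 149 and 150 RPKM in control and 191 and 199 RPKM in Cd offspring, a log2 fold change of 0.38 (standard error 0.048, limma adjusted p = 0.0185). Pde3b, a phosphodiesterase that breaks down cAMP, had 51.7 and 48.1 RPKM in control and 65.8 and 71.4 RPKM in Cd offspring, a log2 fold change of 0.46 (limma adjusted p = 0.0383). Glipr1, a member of the CAP family, had 23.5 and 23.4 RPKM in control and 31.3 and 31.6 RPKM in those of Cd offspring. The change of 0.42 on the log2 scale (limma adjusted p = 0.0117) stood out from a spread of 0.0507 and 0.162 RPKM (SD, n = 2). Banp, a DNA-binding protein of the nuclear matrix, went from 6.12 and 6.65 RPKM to 9.02 and 9.68 RPKM (log2 fold change 0.55), and Lman2l, a lectin of the early secretory pathway, from 7.97 and 7.50 RPKM to 11.4 and 13.5 RPKM (0.67). Pde3b and Banp lost the call in all 4 fits with a library left out, Sfpq and Lman2l in 3 and Glipr1 in 2.

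**Figure D2:**
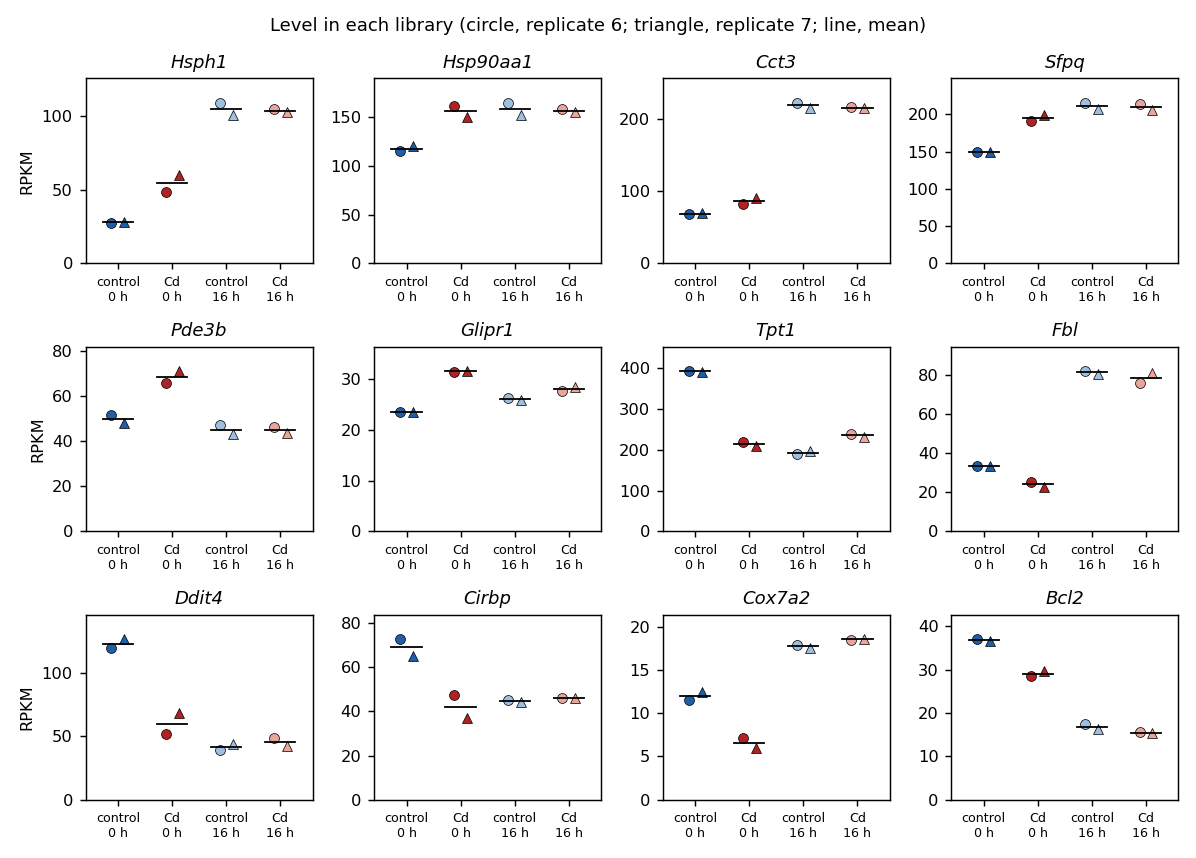
Levels in RPKM of 12 called genes in the 8 libraries, with circles for replicate 6, triangles for replicate 7 and a line at the mean of the 2. The 2 left groups of each panel are at 0 h. There the Cd libraries lie above the control libraries for the first 6 genes and below them for the other 6. At 16 h Hsph1 lies at 109 and 101 RPKM in control and 105 and 102 RPKM in Cd offspring. Tpt1 lies higher in Cd offspring at 16 h, at 239 and 233 RPKM against 189 and 197 RPKM in control.

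Among the genes that fell, Tpt1 (NCBI gene 22070, chr14:75845256-75848303) had the lowest adjusted p of the 57. It encodes the translationally controlled tumour protein and is a classic mRNA with a 5' terminal oligopyrimidine tract, the feature by which mTOR controls the translation of ribosomal protein mRNAs. Its level was 394 and 392 RPKM in control and 219 and 209 RPKM in Cd offspring. The means of 393 ± 1.45 and 214 ± 6.58 RPKM (SD, n = 2) gave a log2 fold change of -0.88 (standard error 0.049, limma adjusted p = 0.00183). Tpt1 was called in all 11 settings tried and with each of the 4 libraries left out, between -0.91 and -0.85. It shares 18.7% of its windows of 50 bases with other transcripts. Gm6402, a transcribed pseudogene at chr17:30394825-30396180, was called in the same 11 settings. It had 10.5 and 10.2 RPKM in control and 4.03 and 4.20 RPKM in Cd offspring (log2 fold change -1.31, limma adjusted p = 0.00635). No transcript of Gm6402 was available to match, so whether it is a copy of a ribosomal protein gene was not tested.

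Fbl, the methyltransferase fibrillarin of the snoRNA particles that modify ribosomal RNA, was the other called member of the translation list. It had 33.5 RPKM in both control libraries and 25.1 and 22.9 RPKM in Cd offspring, a log2 fold change of -0.48 (standard error 0.059, limma adjusted p = 0.0185). Of the 38 translation factors and other mRNAs with such a tract, 2 fell, 0 rose and 36 were not called, and the median was -0.09, or -0.02 without the control replicate 6. Elongation factors were not among the called genes, with log2 fold changes of 0.06 for Eef1a1 and -0.12 for Eef2, both with overlapping groups, and -0.21 for Eef1g. The initiation factor subunit Eif2s3x had the lowest p of the members not called by limma on RPKM and was called by voom, with 15.6 and 15.9 RPKM in control and 12.0 and 12.9 RPKM in Cd offspring (limma adjusted p = 0.0819).

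Nucleolar and small ribonucleoprotein genes gave few further calls. Snrpg, an Sm protein of the spliceosome, fell from 44.8 and 43.1 RPKM to 30.3 and 34.8 RPKM (log2 fold change -0.44, limma adjusted p = 0.0492) and was the only called gene of a list of 53 splicing factors that does not include Sfpq. The median of that list was 0.06, and voom called none of the 53. Npm3, a nucleolar chaperone that the naming rule did not select and that is named with its values known, had 38.0 and 37.6 RPKM in control and 25.6 and 28.8 RPKM in Cd offspring (-0.48). Snhg6, a host of small nucleolar RNAs, fell from 28.3 and 29.2 RPKM to 22.6 RPKM in both Cd libraries (log2 fold change -0.34, limma adjusted p = 0.0369). It was the only call by limma among 21 such host genes and among 483 long non-coding RNA genes. With a library left out it was called in 0 of the 4 fits, in 5 of the 11 other settings, and not by voom (adjusted p = 0.205). Snhg7, the RNA that the study follows, had 7.57 and 9.43 RPKM in control and 7.22 and 6.76 RPKM in Cd offspring and was not called (-0.27, limma adjusted p = 0.346), and neither were Galnt7 (0.14) and Galnt1 (0.04), the genes of its candidate effectors.

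The ribosomal protein genes themselves are represented by Rps26, with 919 and 884 RPKM in control and 519 and 585 RPKM in Cd offspring. Its log2 fold change was -0.71 (standard error 0.072, limma adjusted p = 0.00966), near the median of -0.52 over the 79 genes. The 77 mitochondrial ribosomal protein genes, which are made in the cytosol without belonging to its ribosomes, had a median of -0.06. The 47 proteasome subunit genes had a median of -0.04. Neither list had a call by limma or by voom. An unadjusted p under 0.05 was found for 9 and 8 genes, against 13.9% of all genes tested.

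Nuclear genes of oxidative phosphorylation lay mostly below 0. Of 79 tested, 72 were below 0, 3 fell and 0 rose, with a median log2 fold change of -0.14, and 37 had an unadjusted p under 0.05. Over all genes tested, 6095 of 12605 were below 0 and 13.9% had an unadjusted p under 0.05. Cox7a2, a subunit of cytochrome c oxidase, had 11.6 and 12.4 RPKM in control and 7.10 and 6.01 RPKM in Cd offspring, a log2 fold change of -0.87 (standard error 0.088, limma adjusted p = 0.00966). Cox5b, of the same complex, had 32.3 and 30.5 RPKM against 23.2 and 20.02 RPKM (log2 fold change -0.54), and Ndufa3, of complex I, 125 and 129 RPKM against 89.1 and 98.5 RPKM (-0.44). Of the members not called by limma on RPKM, the lowest p values went to Atp5k (-0.56) and Atp5h (-0.50) of ATP synthase and Ndufa7 (-0.46) of complex I, all called by voom. Uqcc3, an assembly factor of complex III, and Tomm7, of the import pore of the outer membrane, were called lower at -0.34 and -0.40 and are named after their values were seen.

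Cox7a2, Cox5b and Ndufa3 are counted over 754, 569 and 349 bases, and the change varied with length. Among protein-coding genes outside the ribosomal ones the median was -0.19 for 98 genes counted over up to 500 bases, -0.10 for 725 of 500 to 1000 bases, -0.03 for 2479 of 1000 to 2000 bases, 0.01 for 4388 of 2000 to 4000 bases, 0.04 for 2563 of 4000 to 8000 bases and 0.08 for 402 of over 8000 bases. In stimulated cells the same bands ran from 0.02 to -0.03. With the trend over length removed, the median of the oxidative phosphorylation list was -0.09. After that step 34 genes were called outside the ribosomal genes, 10 higher and 24 lower, and 30 of the 57 were among them, with Hsph1 at an adjusted p of 0.0146 from limma, Tpt1 at 0.00227, Cox7a2 at 0.0128 and Cox5b at 0.0317. Ndufa3 was not called after it (0.0776).

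The 13 protein genes of the mitochondrial chromosome were all named for this description after their values were seen, apart from the called ones. They split by position. Of the 6 consecutive genes from COX2 to ND4L (chrMT:7013-10173), 4 were called lower, and the log2 fold change ran from -0.63 to -1.18. The groups did not overlap for any of the 6, which also held for 42.3% of all genes tested. COX2 had 901 and 785 RPKM in control and 438 and 546 RPKM in Cd offspring (-0.78, limma adjusted p = 0.0383). COX3 had 682 and 641 RPKM in control and 354 and 431 RPKM in Cd offspring (-0.76, limma adjusted p = 0.0239). ATP6 was called at -0.63 and ND4L at -0.79, and the 2 members not called by limma on RPKM were ATP8 at -1.18, which voom called, and ND3 at -0.64. The other 7 genes, ND1, ND2, COX1, ND4, ND5, ND6 and CYTB, had log2 fold changes of -0.06 to -0.18 and no call.

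The summed level of the 6 was 3611 and 2988 RPKM in control and 1713 and 2143 RPKM in Cd offspring, and that of the other 7 was 22315 and 19538 RPKM against 18208 and 20200 RPKM. This stretch has a near-identical nuclear copy, annotated as 7 pseudogenes on the minus strand of chr1:24611535-24616197. COX2, ATP6, COX3, ND3 and ND4L share 98.0% to 100% of their windows of 50 bases with transcripts of other genes. The share is 62.2% for ND4, 51.1% for COX1 and 0% for ATP8, ND1, ND6 and CYTB. Only annotated transcripts were compared. ATP8 lies within the stretch, so its 0% does not show that it is without a match in the genome. How reads with several matches were counted is not given in the sources used here, and the part of that copy in the result was not tested. COX2 was called in 1 of the 4 fits with a library left out, ATP6 and COX3 in 2 and ND4L in 3. In stimulated cells the 6 ran from -0.13 to 0.10.

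**Figure D3:**
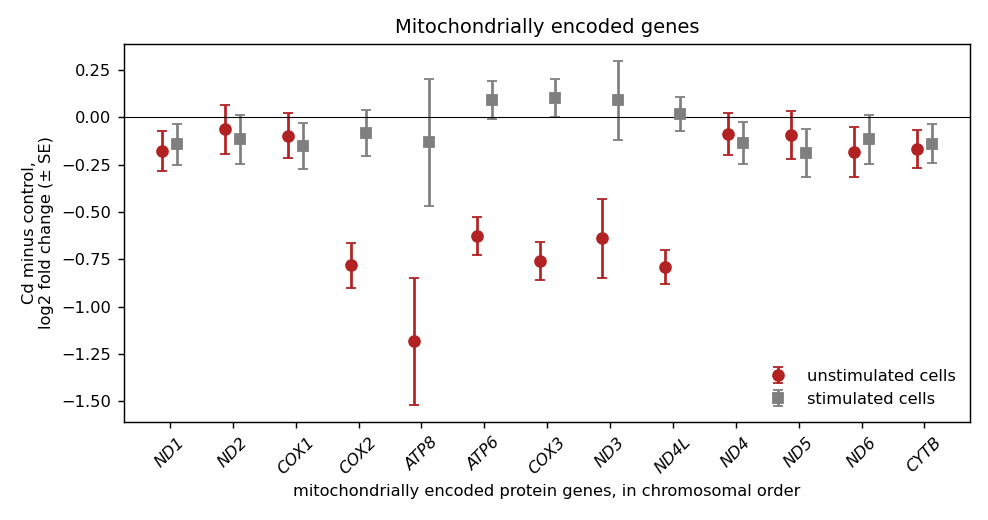
Log2 fold change of Cd against control offspring, with its standard error from limma (error bars), for the 13 mitochondrially encoded protein genes in chromosomal order, in unstimulated (circles) and stimulated cells (squares). In unstimulated cells the 6 genes from COX2 to ND4L lie at -0.63 to -1.18 and the other 7 at -0.06 to -0.18.

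Several called genes bear on stress and survival of T cells. Ddit4 (chr10:59949675-59951770), the mTORC1 inhibitor REDD1 that glucocorticoids and energy stress induce, had 120 and 127 RPKM in control and 51.7 and 68.2 RPKM in Cd offspring, a log2 fold change of -1.05 (standard error 0.13, limma adjusted p = 0.0187). It was the only call by limma on RPKM among 15 glucocorticoid-responsive genes (voom called Tsc22d3 and Txnip too), whose median was -0.19 and whose 13 members below 0 included Tsc22d3, with 208 and 232 RPKM in control and 143 and 172 RPKM in Cd offspring, and Cxcr4 and Txnip. Without the Cd replicate 7 that median was -0.05, and after quantile normalization -0.09. Cirbp, a cold-inducible RNA-binding protein, fell from 72.7 and 65.2 RPKM to 47.3 and 36.8 RPKM (log2 fold change -0.72, limma adjusted p = 0.0383). The entry of its relative Rbm3 was at 22.1 to 23.2 RPKM in all 4 libraries (-0.01, standard error 0.071). Rbm3-ps, a pseudogene of Rbm3 that shares 87.7% of its windows with other transcripts, fell from 206 and 165 RPKM to 121 and 105 RPKM (-0.71). How reads were divided between the Rbm3 entries was not tested, so a level Rbm3 mRNA is not shown. Neither Ddit4 nor Cirbp shares a window of 50 bases with another transcript.

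Bcl2, which keeps resting T cells alive, is named after its values were seen. It had 37.0 and 36.6 RPKM in control and 28.5 and 29.6 RPKM in Cd offspring, a log2 fold change of -0.34 (standard error 0.055, limma adjusted p = 0.0432), and it was called in none of the 4 fits with a library left out. Its relatives Bcl2l1 (-0.09) and Mcl1 (-0.01) overlapped between the groups. Tnfrsf18, the receptor GITR, fell from 33.6 and 33.1 RPKM to 27.6 and 27.4 RPKM (log2 fold change -0.28, limma adjusted p = 0.0364) and was the only call among 16 regulatory T cell genes. It was called in 0 of the 4 fits with a library left out and in 4 of the 11 other settings, not by voom (adjusted p = 0.0979) nor with the length trend removed (0.101). The regulatory factor Foxp3 had 5.08 and 4.84 RPKM in control and 4.48 and 4.72 RPKM in Cd offspring (-0.11), and Il2ra, which encodes CD25, was at 0.14, both without a call.

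Il2, the growth factor made on activation, was called at a very low level, 0.703 and 0.517 RPKM in control and 0.271 and 0.308 RPKM in Cd offspring. The control values rest on 12 and 8 reads and the Cd values on 5 and 6 reads, and the log2 fold change of -0.86 (limma adjusted p = 0.0409) was called in 2 of the 11 other settings. Gmfg, a regulator of actin branching, had 55.5 and 54.4 RPKM in control and 38.2 and 40.2 RPKM in Cd offspring (log2 fold change -0.49, limma adjusted p = 0.0107). Cenpb, which binds centromeric repeats, fell from 23.02 and 20.8 RPKM to 16.4 and 14.4 RPKM (-0.51), Zc3h6 from 9.51 and 10.3 RPKM to 7.01 and 6.77 RPKM (-0.52), and the glycolytic Pgk1 from 7.75 and 7.36 RPKM to 5.18 and 5.30 RPKM (-0.52). Pgk1 was called in 1 of the 11 other settings. The called genes Nme2 (-0.43), Ninj1 (-0.49), Drap1 (-0.33), Dtd1 (-0.38) and Ost4 (-0.32) fall outside the naming rule and were singled out with their values known.

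Lists for T cell state held no other call by limma on RPKM. The 29 genes of the naive and quiescent state had a median of -0.08, with 25 below 0, the 39 of memory and effector cells -0.11, from -0.21 without the Cd replicate 7 to -0.006 without the Cd replicate 6, and the 34 of the T cell receptor and its proximal signalling -0.02. The 20 proliferation genes had a median of 0.03, the 26 DNA methylation and chromatin modifiers 0.02 and the 307 numbered zinc finger genes 0.05. The 55 interferon-stimulated genes stood at 0.07, and at -0.05 without the control replicate 7, and the 16 genes of MHC class I presentation at -0.04. The medians of the naive state, receptor signalling, proliferation, chromatin, zinc finger and MHC class I lists lay between -0.11 and 0.06 with each library left out, and those of receptor signalling, proliferation, chromatin and MHC class I changed sign. Voom called Crip1 of the memory list and Kmt2a of the chromatin list, and no other gene of these lists.

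The 40 immediate early genes, which respond within minutes to handling or receptor signals, had a median of -0.18 with 34 below 0. None was called by limma on RPKM, and 5 had an unadjusted p under 0.05, against 13.9% of all genes tested. Voom called Cd69 (adjusted p = 0.00932). Cd69 had 156 and 136 RPKM in control and 116 and 106 RPKM in Cd offspring (log2 fold change -0.39, limma adjusted p = 0.079). This median depended on 1 library. Without the Cd replicate 7 it was 0.02, and without the Cd replicate 6 it was -0.43.

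**Figure D4:**
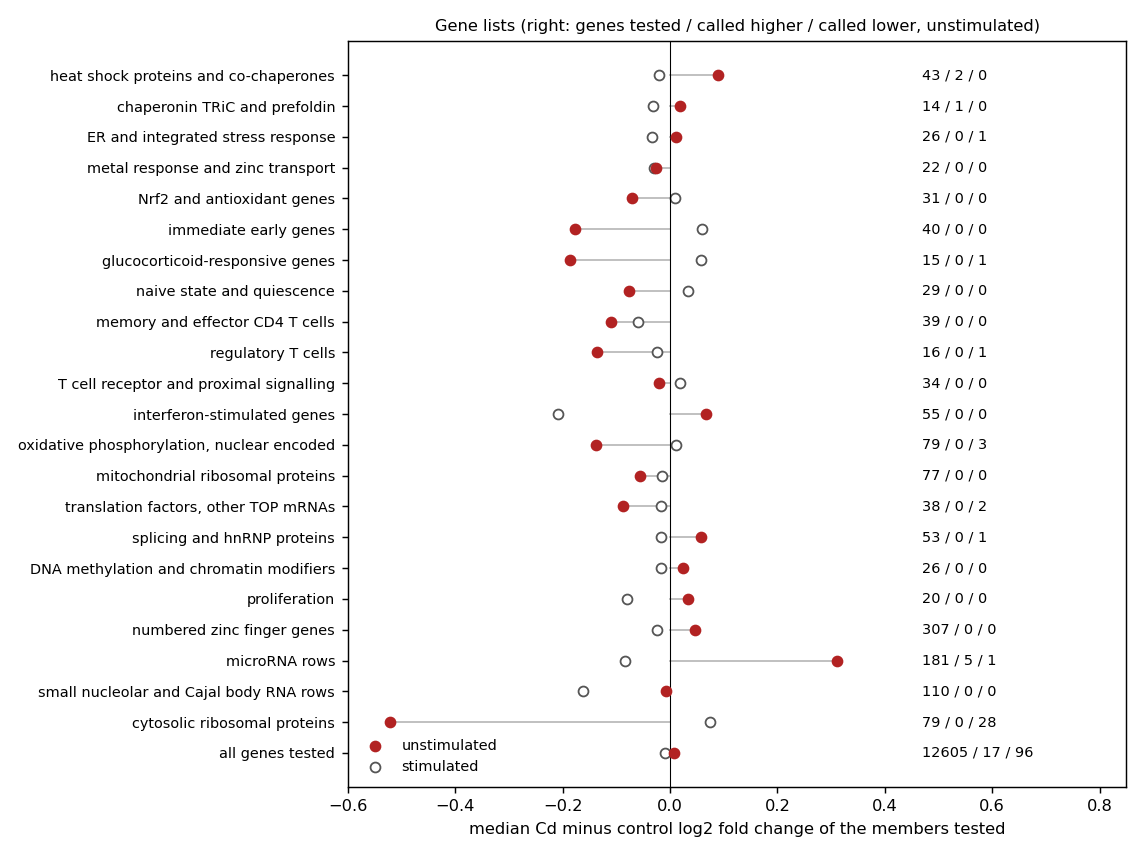
Median log2 fold change of Cd against control offspring over the tested members of each list, in unstimulated (filled circles) and stimulated cells (open circles), with the number tested, called higher and called lower in unstimulated cells on the right. Among the lists plotted, cytosolic ribosomal proteins lie lowest at -0.52 and microRNA entries highest at 0.31, against 0.007 over all genes tested.

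Sequences of the called microRNA entries are printed here so that the 5 called higher and the 1 called lower can be told apart by their seeds. A microRNA finds its targets through its seed, bases 2 to 8, shown in capitals. Mature sequences are those of RefSeq on GRCm38.p6, matched by name for 160 of the 181 entries tested, and no pair of those below shares a seed. Mir669k is named only.
mmu-miR-1934-5p, from Mir1934, chr11:69663055-69663077, plus strand: uCUGGUCCccugcuucguccucu
mmu-miR-1934-3p, from Mir1934, chr11:69663092-69663113, plus strand: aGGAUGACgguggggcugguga
mmu-miR-3971, from Mir3971, chr11:75551480-75551501, plus strand: cUCCCCACcccuguaccaguga
mmu-miR-5119, from Mir5119, chr11:98262638-98262656, plus strand: cAUCUCAUccuggggcugg
mmu-miR-1249-3p, from Mir1249, chr15:84951545-84951566, minus strand: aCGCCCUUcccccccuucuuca
mmu-miR-25-3p, from Mir25, chr5:138165332-138165353, minus strand: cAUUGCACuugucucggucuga
mmu-miR-25-5p, from Mir25, chr5:138165370-138165391, minus strand: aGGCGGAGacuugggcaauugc

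The libraries were made from poly(A)-selected RNA, in which mature microRNAs are not selected, and the entries count fragments that overlap the hairpin span. None of the 6 was called by voom on the reads, with adjusted p values of 0.0608 to 0.484, and Mir1934, Mir1249 and Mir25 were called in 0 of the 4 fits with a library left out. Mir3971 had 4 reads in either control library and 12 and 21 reads in the Cd libraries, a log2 fold change of 1.73 (limma adjusted p = 0.0312). Mir5119 had 7 and 6 reads against 17 and 14 reads, a log2 fold change of 1.02 (limma adjusted p = 0.0356). Both lie in introns, Mir3971 of Slc43a2 and Mir5119 of Cdk12, and the host genes were not called, at -0.15 and 0.12. Mir1934, Mir1249 and Mir669k had 0 reads in both control libraries, and 2 and 3, 3 and 5, and 5 and 4 reads in the Cd libraries. Set against a floor of 3 reads over the control group, Mir1934 and Mir1249 were 1.43-fold and 2.29-fold higher. These folds leave out the counting error of the 5 and 8 reads in the Cd group, so they are no lower bounds. Mir669k averaged 0.152 RPKM over the other 6 libraries and passed the filter of 0.5 RPKM only through the unstimulated Cd libraries, so its call is conditional on the group in which it is high and no fold is given. Mir25, inside an annotated exon of Mcm7, had 8 reads in either control library against 5 and 6 in the Cd libraries (-0.75), and Mcm7 was at 0.03.

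Over the 181 microRNA entries the median log2 fold change was 0.31, with 127 above 0, and 138 of them had under 40 reads over the 4 unstimulated libraries. Entries inside introns had a median of 0.39 (100 entries, 77 above 0), with 0.05 for their hosts, and those inside exons 0.10 (52 entries). The median moved with the library left out, from 0.16 without the control replicate 6 to 0.47 without the control replicate 7. With the length trend removed it was 0.17. In stimulated cells it was -0.08. The 110 small nucleolar and Cajal body RNA entries had a median of -0.01 and no call by limma or voom. An unadjusted p under 0.05 was found for 28 of them, against 13.9% of all genes tested.

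Segments of the T cell receptor loci were examined by kind after their values were seen. Joining segments of the alpha chain are short exons that recombination links to a variable segment in each rearranged alpha gene. Traj41 (chr14:54176271-54176325) had 54.6 and 59.1 RPKM in control and 86.1 and 84.99 RPKM in Cd offspring (log2 fold change 0.59, limma adjusted p = 0.013), and Traj2 141 and 148 RPKM against 233 and 220 RPKM (0.65, limma adjusted p = 0.0389). Of 51 alpha joining segments tested, 49 were above 0 with a median of 0.43, and 2 were called. Neither was called with the length trend removed (adjusted p = 0.0617 for Traj41 and 0.109 for Traj2, limma). Traj41 was not called by voom (0.161), and Traj2 in 0 of the 4 fits with a library left out. Their summed level was 4674 and 6421 RPKM in control and 7244 and 7633 RPKM in Cd offspring, so that the control replicate 6 stood apart from the other 3 libraries. The 13 beta joining segments had a median of -0.06, the 94 alpha variable segments -0.05 and the 22 beta variable segments -0.22, none of them called.

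Over all 73 joining segments the median was 0.38, and it was 0.17 without the control replicate 6 and 0.21 with the length trend removed. Trbd2, a beta diversity segment counted over 14 bases, fell from 1172 and 1350 RPKM to 802 and 817 RPKM (log2 fold change -0.64, limma adjusted p = 0.033). Trdd1, a delta diversity segment counted over 9 bases, had 2 reads and 1 read in the control libraries and 0 in both Cd libraries, too few for a fold, and passed the filter only through the unstimulated control libraries.

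Pseudogenes made up another share of the calls. Ndufs6b, a copy of Ndufs6, fell from 3.48 and 3.85 RPKM to 1.17 and 1.53 RPKM (log2 fold change -1.39, limma adjusted p = 0.0187), and Ndufs6 itself was uncalled at -0.41. Rbm3-ps had 206 and 165 RPKM in control and 121 and 105 RPKM in Cd offspring (-0.71), with the parent Rbm3 at -0.01, and shares 87.7% of its windows with other transcripts. Gm5643, a copy of Hnrnpa1, was called lower at -0.78 and Gm6929, a copy of Cdc42 singled out after its values were seen, at -1.56. Gm8069, a copy of Tomm5, was called higher at 0.46. Among entries without a RefSeq type, Gm5908 (-1.20) and Gm4581 (-1.04) were called lower and gene100504533 higher (0.72). Gm4581 and gene100504533 had no transcript to match, so whether they are copies of ribosomal protein genes was not tested.

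The called genes were also counted by the sequence they share. Of 4358 tested genes outside the ribosomal ones that share no window of 50 bases with another gene, 15 were called, 6 higher and 9 lower (0.207% lower). Of 3695 that share over 5% of their windows, 27 were called, 5 higher and 22 lower (0.595% lower). Between them, of 3901 that share up to 5%, 7 were called, 5 higher and 2 lower (0.0513% lower), so the share called lower did not follow the shared sequence in order. Of 446 without a matched transcript, 8 were called, 1 higher and 7 lower (1.57% lower). The 9 lower genes without a shared window were Ddit4, Cirbp, Cox7a2, Ndufa3, Cenpb, Ninj1, Drap1, Uqcc3 and Dtd1. The 6 higher ones were Hsph1, Traj41, Traj2, Mir1934, Mir3971 and Mir5119. The median log2 fold changes were -0.003 without a shared window and -0.001 with over 5% shared, and this count was chosen after seeing the data.

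The difference between the Cd effects in stimulated and unstimulated cells was tested with the interaction contrast of the same limma fit. It was called for 45 of 12605 genes (0.357%), 13 of them outside the ribosomal genes and copies. Hsph1 had a log2 fold change of 0.95 in unstimulated and -0.02 in stimulated cells, a difference of -0.97 (standard error 0.14, limma adjusted p = 0.0462), with stimulated levels of 109 and 101 RPKM in control and 105 and 102 RPKM in Cd offspring. Tpt1 had 189 and 197 RPKM in stimulated control and 239 and 233 RPKM in stimulated Cd cells, the opposite order to that at rest, and its difference was 1.17 (standard error 0.069, limma adjusted p = 0.00436). The difference was 0.93 for Cox7a2 (limma adjusted p = 0.0405), 0.54 for Gmfg (limma adjusted p = 0.0405), 0.75 for Rps26 (limma adjusted p = 0.0414) and 1.82 for Gm6402 (limma adjusted p = 0.0102).

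For most called genes the difference between the effects was not called. Among the 35 protein-coding genes called at rest, the stimulated log2 fold changes ran from -0.18 for Il2 to 0.29 for Tpt1. They were close to 0 for Hsp90aa1 (-0.02), Cct3 (-0.03), Sfpq (-0.01) and Cirbp (0.03), and 0.13 for Ddit4 and -0.12 for Bcl2. The limma adjusted p of the interaction was 0.137 for Hsp90aa1, 0.0714 for Ddit4 and 0.39 for Bcl2. An effect confined to resting cells is therefore not shown for them. The plot of both effects sets the 35 genes side by side.

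**Figure D5:**
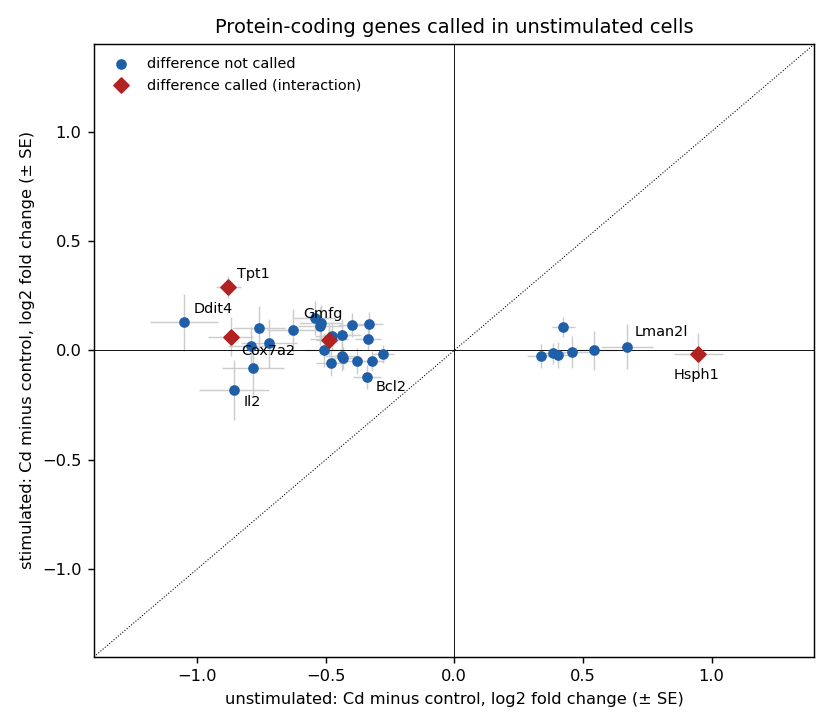
Log2 fold change of Cd against control offspring in unstimulated (horizontal) and stimulated cells (vertical), with standard errors from limma, for the 35 protein-coding genes called in unstimulated cells outside the ribosomal genes. The dotted line marks equal effects, and diamonds are genes whose difference between the effects was called, such as Hsph1 (0.95 and -0.02) and Tpt1 (-0.88 and 0.29).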

How the data were processed

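RNA of splenic CD4+ T cells was sequenced from poly(A)-selected libraries (KAPA mRNA HyperPrep). The authors aligned reads with Subread to mm10, counted RefSeq transcripts with featureCounts, and used edgeR for their own comparisons. Versions, strand setting and the treatment of reads with several matches are not given in the sources used here. The deposited values are on a log2 scale, log2(RPKM + 1) + 0.0001, read from the values. RPKM had been planned for, so the values were turned back into RPKM before the test. Whole reads and library totals (15542732 to 25486791) were worked out from the whole-read steps in low values, for 17794 genes.

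Genes with a mean of at least 0.5 RPKM over the 8 libraries were fitted in limma 3.58.1 (R 4.3.3) on log2(RPKM + 0.1) with 4 group means, empirical Bayes moderation with a trend and Benjamini-Hochberg adjustment (two-sided). An exact permutation test of 2 libraries against 2 cannot give a two-sided p below 0.333, so none was run. In simulated data, 90 of 100 genes changed by log2 1 and 60 of 100 changed by log2 0.5 were called, with 6 unchanged genes called of 12605. The noise was drawn as normal and the changes were placed only in genes well above the level filter. These shares therefore do not cover calls that rest on few reads. Copies of ribosomal protein genes were found by symbol or with blastn 2.17.0. For 356 of the 12400 genes counted as others there was no transcript to match, so copies among them can have been missed. Shared sequence is the percent of 50-base windows of a gene found in transcripts of other genes of GENCODE M21. Gene types and positions are those of RefSeq on GRCm38.p6, the assembly of mm10.

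The genes, lists and tests were chosen with earlier results of these data known. Named were Hsph1 and Rps26, every gene called higher, up to 25 genes called lower by the size of the change with a mean of at least 2 RPKM and no overlap, every called member of a list with up to 4 further members by p, marker genes, Snhg7, Galnt1 and Galnt7. Other genes, such as Hspa1b, Eef1a1 and Foxp3, were looked up after the values were seen. The settings tried were a pseudocount of 0.5 or 1, a mean of at least 1 RPKM or no filter, the 4 unstimulated libraries alone, median-of-ratios scaling, quantile normalization, removal of the trend over length, a replicate block, no trend in the spread, limma voom on the recovered reads, and each library left out in turn. A fit without a library takes the spread of the lone sample from the other groups. Same-numbered libraries did not deviate together, so the numbers were not used as pairs. Python 3.11.15 was used with pandas 2.3.3, numpy 2.4.6 and matplotlib 3.10.9.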

Additional observations from a re-analysis of the deposited data

Results flagged for a closer look

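Of the named genes, 11 had a Cd effect that differed between stimulated and unstimulated cells by the interaction contrast of limma at an adjusted p under 0.05. The difference, stimulated minus unstimulated on the log2 scale, was 1.167 for Tpt1, 1.821 for Gm6402, -0.9651 for Hsph1, 0.9309 for Cox7a2, 0.5367 for Gmfg and 0.7517 for Rps26.

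The other 5 differences rest on very few reads. They were -2.265 for Scarna3a, -5.462 for Mir1934, -5.689 for Mir1249, -6.689 for Mir669k and 6.536 for Trdd1. Mir669k passed the level filter only through the unstimulated Cd libraries and Trdd1 only through the unstimulated control libraries. The differences of Mir669k and Trdd1 are therefore conditional on the group in which each is high. Scarna3a had 1.41 and 2.08 RPKM in control and 3.93 and 3.30 RPKM in Cd offspring without stimulation, and 2.73 and 2.61 RPKM against 1.16 and 0.998 RPKM with it, so its order turned. Mir669k had 0 reads in 2 of the unstimulated and in 2 of the stimulated libraries, those of control and of Cd offspring respectively. Trdd1 was at 0 in all 4 stimulated libraries. The fitted sizes of genes with groups at 0 depend on the pseudocount and are no bounds.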

How the results depend on the processing

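The 113 calls, the 57 outside the ribosomal genes and the 45 differences between stimulated and unstimulated cells (in this order below) changed with the setting. They were 65, 32 and 28 without a filter on low values, 14, 7 and 4 without a trend in the spread, and 211, 125 and 111 with limma voom on the recovered reads. The 4 unstimulated libraries alone gave 52 and 17, and removal of the length trend gave 71 and 34. Among genes that share no window of 50 bases they were 15, 15 and 6, a count added after the data were seen, over fewer genes. With a library left out they ran from 19 to 105, from 9 to 71 and from 27 to 63. The replicate block, a term for the replicate number shared by all groups, left 32 outside the ribosomal genes, 11 higher and 21 lower, and 76 in all. Pairs of unstimulated and stimulated libraries within an exposure group were not fitted. Same-numbered libraries did not deviate together, so the numbers were not taken as pairs. The correlation of the differences was 0.012 between control and Cd unstimulated cells. Between unstimulated and stimulated cells it was 0.064 in control and 0.0085 in Cd offspring. The higher and lower shares moved with the setting, from 17 and 40 to 10 and 7 with the 4 libraries alone and to 61 and 64 with voom. Pseudocounts of 0.5 and 1, a mean of at least 1 RPKM, median-of-ratios scaling and quantile normalization gave 101 to 121, 47 to 62 and 37 to 41. The cause of these shifts was not tested.

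Of 3041 values of named genes under these settings, 404 lost a call and 31 gained one. Some genes that were not called changed sign between settings, such as Cd28, at -0.096 to 0.088 with a library left out. Of 630 list medians 29 changed sign. The 8 called genes with under 40 reads over the 4 unstimulated libraries are limited by depth.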
